A study of Caenorhabditis elegans with 2 samples.

Results

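The peaks described here are the CHD-3 binding sites listed for chromosome III of Caenorhabditis elegans. They were chosen by chromosome alone: every entry of the deposited peak list whose chromosome is III was kept, which gave 773 of the 4940 peaks on the 6 chromosomes. The peaks came from chromatin immunoprecipitation with sequencing (ChIP-seq), in which DNA bound by a protein is recovered with an antibody and read. The series names 2 samples, each numbered replicate 2: a ChIP library, for which CHD-3 was recovered with a rabbit polyclonal antibody purified by affinity, and an input library of unselected DNA. Both came from hermaphrodite adults of strain fem-2(b245), grown at 20 °C. The submitters call the animals young adults that contain a germline, while the growth protocol describes gravid adults. The mutant allele of fem-2, a phosphatase gene needed for male development, is shared by the ChIP and the input, and the genotype places it on chromosome III itself. No other strain was compared. The peak list belongs to the ChIP sample. It has no replicate, its read depth is unknown and no input signal was analysed, so every value below describes 1 list and no p-value is given.

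CHD-3 is a worm relative of Mi-2, the ATPase that slides and spaces nucleosomes in NuRD-type remodelling and deacetylase complexes. Mi-2 proteins pair chromatin remodelling with histone deacetylation and are best known for repressing genes during development. C. elegans has a second Mi-2 protein, LET-418. Worm autosomes have gene-dense centres with little recombination, and arms with more recombination and more repeats, which is why the parts of chromosome III are described apart.

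Positions are on WormBase release WS220 and are counted from 1. The end of the chromosome was set at 13783020, where its last peak ends. Its central 50%, from 3445756 to 10337265, is called the centre, and the outer 25% on each side the right and the left arm. The peak caller's score was deposited without a named scale. It is used here only to rank peaks within the list and to set them side by side. No gene is assigned to any peak, because the gene table at hand is of another assembly. For the same reason no sequence is shown.

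CHD-3 peaks were found along the whole of chromosome III, most densely in the right arm. The right arm held 237 peaks, or 68.8 per Mb, and the left arm 196 peaks, or 56.9 per Mb, a ratio of 1.21 whose counting interval, 0.996 to 1.47, includes 1. The centre held 340 peaks, or 49.3 per Mb, against 62.8 per Mb over both arms. The higher density of the left arm than of the centre depends on 1 window of 100 kb, from 300001 to 400000. It held 33 of the 196 peaks, and without it the left arm was no denser than the centre. The ratio of the arms was then 1.41. Over all peaks the central share was 43.98% (95% exact Clopper-Pearson interval 40.4 to 47.6%). Both intervals cover counting error only and treat neighbouring peaks as independent. In the upper part of the list by score, 387 peaks, the central share minus 50% was -0.13 percentage points, against -6.02 over all peaks. The ratio of the arms was 1.62 in that part, where the left arm was less dense than the centre. The length inside peaks was split differently from their number. The centre had 202.7 kb inside peaks and both arms together 201.8 kb, which was 2.94% of the centre and 2.93% of the arms. This near equality depends on 1 stretch of 100 kb, from 7400001 to 7500000, which gave 45.3 kb of the central length.

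The peaks of the centre were the wider ones. Their median width was 389.5 bp (interquartile range 272.75 to 616.25 bp), against 289 bp (214 to 439 bp) in the arms, a difference of 100.5 bp. Within the arms the median was 337 bp in the right arm (219 to 514 bp) and 257 bp in the left arm (205 to 347 bp). Peaks narrower than 300 bp made up 30.3% of those in the centre, 45.1% in the right arm and 63.3% in the left arm. The narrowest peak of the chromosome, 102 bp, lay in the left arm, and the widest, 7712 bp, in the centre.

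Scores followed the same order of regions as widths. The median score was 132.4 in the centre (interquartile range 81.7 to 265.7), 118.4 in the right arm (77.4 to 221.7) and 89.5 in the left arm (67.5 to 148.2). Scores under 100 were given to 37.1% of the peaks in the centre, 39.2% in the right arm and 57.1% in the left arm.

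**Figure D1:**
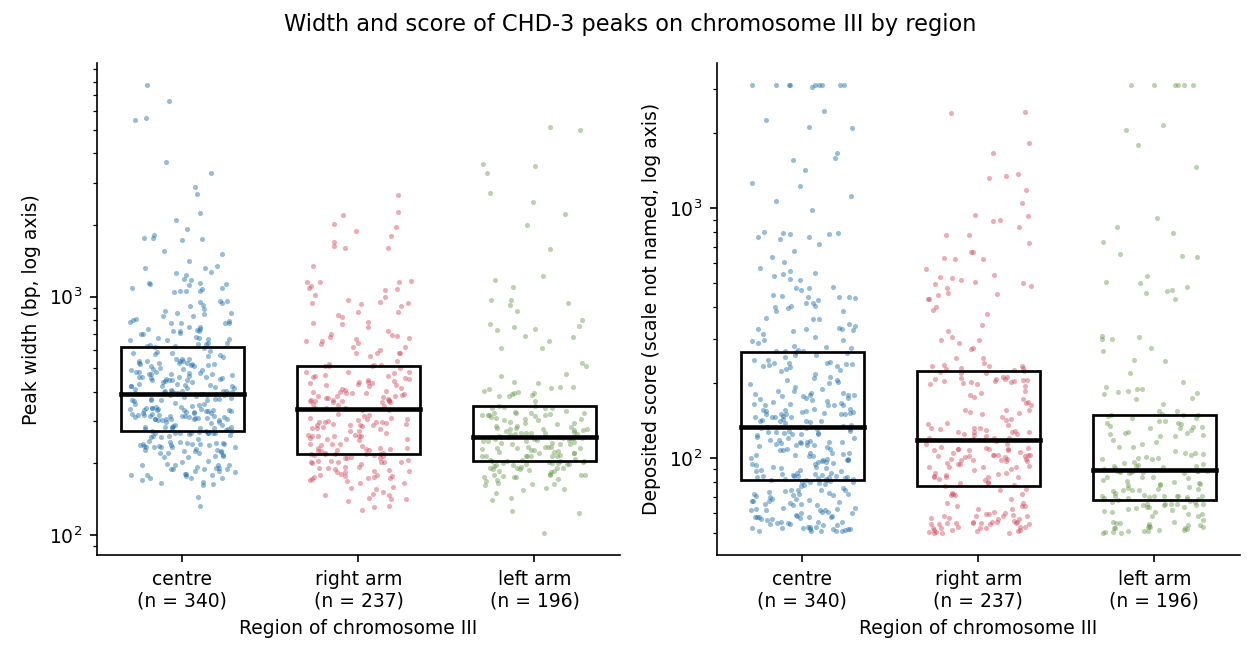
Each point is 1 CHD-3 peak of chromosome III, with its width in bp (left panel) or its deposited score (right panel) on log axes, and each box gives the quartiles with the median as a thick line. Medians run from 389.5 bp in the centre through 337 bp in the right arm to 257 bp in the left arm, while the ranges of the 3 regions overlap over most of their extent.

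Score and width went together across the chromosome, with a Spearman's rho of 0.87 over the 773 peaks. It was 0.90 in the centre, 0.84 in the right arm and 0.83 in the left arm. Neighbouring peaks share their library and often their stretch of chromatin, so rho is a description only. The order of the regions in score changed between classes of width. The centre had the lowest median score in each class from 200 bp to under 1000 bp. Under 200 bp the medians were 57.0 for 31 central peaks, 55.8 for 39 of the right arm and 57.6 for 42 of the left arm. At 200 bp or more but under 300 bp the median score was 79.4 for 72 central peaks, 88.5 for 68 peaks of the right arm and 83.8 for 82 of the left arm. At 300 bp or more but under 500 bp it was 125.0 for 123 central peaks, 127.4 for 67 of the right arm and 132.9 for 41 of the left arm. From 500 bp to under 1000 bp it was 267.3 for 75 central peaks, 291.9 for 42 of the right arm and 302.9 for 18 of the left arm. Among the fewer peaks from 1000 bp to under 2000 bp it was 720.6 for 29 in the centre, 782.8 for 17 in the right arm and 492.5 for 4 in the left arm. At 2000 bp or more it was 2771 for 10 in the centre, 1124 for 4 in the right arm and 3100 for 9 in the left arm, so the regions lay further apart in these wide classes. Whether the score grows with the reads in a peak, and so with width at equal enrichment, is not given by the list.

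Some peaks stood away from this relation, among them peaks at the chromosome ends. Of the peaks of 500 bp or more, 4 scored under 100, and 3 of these were the last 3 of the chromosome. They ran from 13778872 to 13779815 (944 bp, score 94.5), from 13780670 to 13781818 (1149 bp, score 84.8) and from 13782356 to 13783020 (665 bp, score 65.9). For comparison, the median score of the peaks from 500 bp to under 1000 bp was 276.5. The other end showed the reverse. The first peak, from base 1 to 224, had a score of 910 at a width of 224 bp. Only 2 other peaks narrower than 300 bp scored 300 or more, at 1260920 to 1261207 (288 bp, score 506.7) and at 12143724 to 12143995 (272 bp, score 528.7). The limits of 500 bp, 300 bp, 100 and 300 that pick out these peaks were chosen after their values were seen. They leave out high-scored peaks of 500 bp to under 1000 bp that lay away from the ends. Examples are 931167 to 931774 (608 bp, score 2143) and 3987016 to 3987696 (681 bp, score 2119). How reads were placed at the ends of the assembly was not tested.

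**Figure D2:**
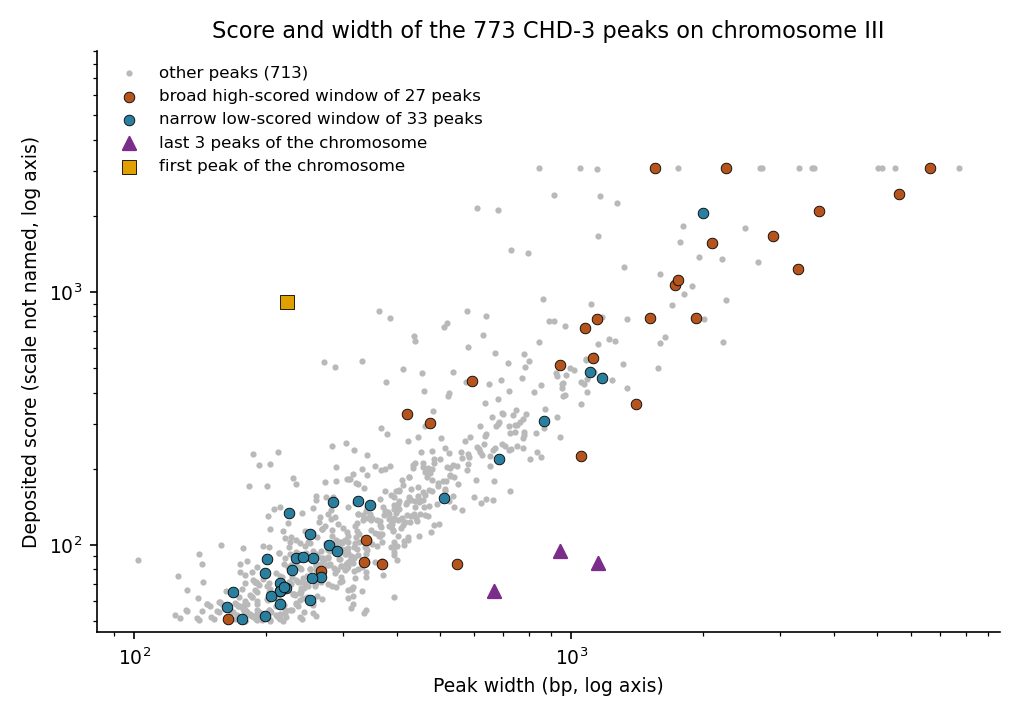
Deposited score against width in bp for the 773 peaks of chromosome III, both on log axes, with the peaks of 2 dense windows and of the chromosome ends in colour. The first peak lies far above the main cloud and the last 3 below it, the window of 27 peaks takes up the upper right, and most of the window of 33 peaks sits at the lower left.

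Broad peaks, those of 1000 bp or more, numbered 73 and made up 36.8% of the length inside peaks. The centre had 39 of them, or 11.5% of its peaks, the right arm 21 (8.86%) and the left arm 13 (6.63%). The first place of the centre rests on the stretch from 7400001 to 7500000, which held 17 of its 39. The few broad peaks of the left arm were long, and most had no close neighbour. They had medians of 2503 bp for width and 2050 for score, and 4 of the 13 had a neighbour less than 500 bp away. In the centre the broad peaks had a median of 1341 bp and a score of 982.7. Such a neighbour was found for 30 of the 39, among them all 17 of that stretch. In the right arm the medians were 1595 bp and 886.4, and 14 of the 21 had one.

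The score had a tied top value of 3100, which 15 peaks of chromosome III shared. The centre held 9 of them and the left arm 6, and in the right arm the highest score was 2415. The tied peaks cannot be ranked among themselves by score. The value is not the highest of the list, since scores reached 3174.44 on chromosome II and 3114.15 on X. The origin of the tie was not tested. Ordered by width, the first 3 of the tied peaks lay in the centre, at 6566780 to 6574491 (7712 bp wide), 7405325 to 7411954 (6630 bp wide) and 5353074 to 5358582 (5509 bp wide). The next 2 lay in the left arm, at 2077571 to 2082706 (5136 bp wide) and 2496954 to 2501985 (5032 bp wide). The 5 widest peaks of the chromosome were the first 4 of these and 7415482 to 7421112 (5631 bp, score 2442), which belonged to the same run as the second. The narrowest peak at the tied score was 844 bp wide, at 3896942 to 3897785. The 6 tied peaks of the left arm were 2730 bp or wider, and 5 of these 6 had no neighbour within 4 kb.

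Spacing was uneven in all 3 regions. Over chromosome III the median gap between neighbouring peaks was 4441 bp, yet 254 of the 772 gaps (32.9%) were under 500 bp and 209 (27.1%) were 20 kb or more. The median gap was 4856 bp in the centre, 2363 bp in the right arm and 6344 bp in the left arm. Gaps under 500 bp were 32.7% of those in the centre, 36.0% in the right arm and 29.7% in the left arm. Very short gaps, under 50 bp, numbered 40 of 339 in the centre, 30 of 236 in the right arm and 14 of 195 in the left arm. Midpoints of neighbours lay within 2000 bp of each other in 38.6% of central pairs (95% exact interval 33.4 to 44.1%), 45.8% in the right arm (39.3 to 52.3%) and 39.5% in the left arm (32.6 to 46.7%). These intervals overlap. Peaks with no other peak within 10 kb were 17.4% of those in the centre, 18.6% in the right arm and 19.4% in the left arm.

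**Figure D3:**
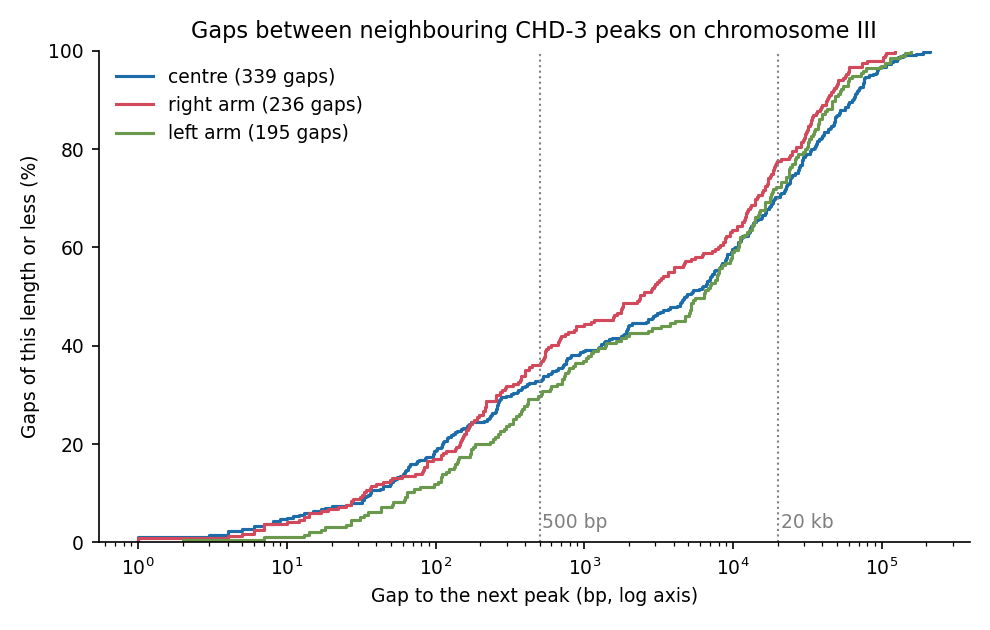
Cumulative share of gaps between neighbouring peaks, in percent, against gap length in bp on a log axis, for pairs with both peaks in the same region of chromosome III. The curve of the right arm runs above the other two from 500 bp to 20 kb, and the curve of the left arm is lowest from 50 to 500 bp, where it reaches 29.7%.

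The longest stretches without a peak lay in the centre. They ran from 6685690 to 6897782 (212.1 kb), from 9905820 to 10094516 (188.7 kb) and from 9236992 to 9408224 (171.2 kb). The longest in the left arm was 156.6 kb, from 630338 to 786950. Of the 138 windows of 100 kb, 4 held no peak, 3 of them in the centre. Gaps of 100 kb or more numbered 23 on the chromosome.

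Neighbouring peaks with a gap under 500 bp were joined into runs. The 773 peaks formed 381 single peaks, 93 pairs and 45 runs of 3 or more, and these 45 runs held 206 peaks. Runs differed between the regions in what they were made of. In runs of 3 or more, the median width was 415 bp in the centre, 438 bp in the right arm and 252.5 bp in the left arm. Broad peaks were 25 of the 97 peaks of such runs in the centre, 13 of 71 in the right arm and 1 of 38 in the left arm. Among single peaks, broad ones were 9 of 171 in the centre, 7 of 114 in the right arm and 9 of 96 in the left arm. In the left arm broad peaks were thus mostly single, and in the centre mostly in runs. However, 17 of the 25 in central runs lay in 1 window of 100 kb, from 7400001 to 7500000. The statement for the centre rests largely on that window.

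The longest run of the chromosome, 20 peaks from 7405325 to 7443078 in the centre, was followed after 1258 bp by the fifth longest, 4 peaks from 7444337 to 7452264. That run of 4 had medians of 1906.5 bp in width and 2383 in score. The other 3 of the 5 longest lay in the right arm. The run from 13584148 to 13599046 held 16 peaks in 14.9 kb, with 90.4% inside peaks, and medians of 813.5 bp for width and 476.1 for score. The run from 13074941 to 13086519 held 12 peaks in 11.6 kb, 89.0% of it inside peaks, with medians of 558 bp and 230.6. The run from 11593517 to 11602155 held 11 peaks in 8.64 kb, 91.9% of it inside peaks, with medians of 480 bp and 162.8. These runs of the right arm mixed broad and narrow entries. In the run from 13584148, for example, the peak from 13590553 to 13592148 (1596 bp, score 1183) stood between one of 127 bp with a score of 51.4 and one of 149 bp with a score of 57.5, at gaps of 14 and 37 bp.

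Per Mb, similar numbers of peaks could cover different lengths. The first Mb held 84 peaks, the most of any full Mb, with 36.5 kb inside peaks, 6 broad peaks and a median score of 89.2. The Mb from 7000001 to 8000000 held 80 peaks with 70.2 kb inside peaks, 19 broad peaks and a median score of 184.0. At the right end, the 71 peaks from 13000001 to 13783020 covered 46.3 kb, with 14 broad peaks and a median score of 202.8. That stretch is shorter than a full Mb, and for its length it held more peaks than the first Mb. The Mb from 9000001 to 10000000 had 28 peaks and 12.3 kb, the lowest of the full Mb in both.

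Windows of 100 kb held a median of 4 peaks. The 10 fullest, with 12 to 33 peaks each, were 7.25% of the windows and held 190 peaks, 24.6% of those on the chromosome. They also held 37 of the 73 broad peaks. The tenth place was shared by 4 windows of 12 peaks, of which the one with most length inside peaks was taken. A window is called broad high-scored where its median width and median score were both above those of all 773 peaks, 326 bp and 115.5, and narrow low-scored where both were below. Width and score thus make these classes, and the contrast is a description. By that rule 7 windows were broad high-scored, 2 in the centre, 4 in the right arm and 1 in the left arm. The 2 narrow low-scored windows lay in the arms, 1 in each, and 1 window of the centre was mixed. The count of 7 depends in part on the choice among the windows tied at 12 peaks. Of those not taken, that at 11400001 (medians 337.5 bp and 125.6) would be broad high-scored. Those at 4200001 (355 bp and 108.5) and 11500001 (304.5 bp and 137.7) would be mixed.

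**Figure D4:**
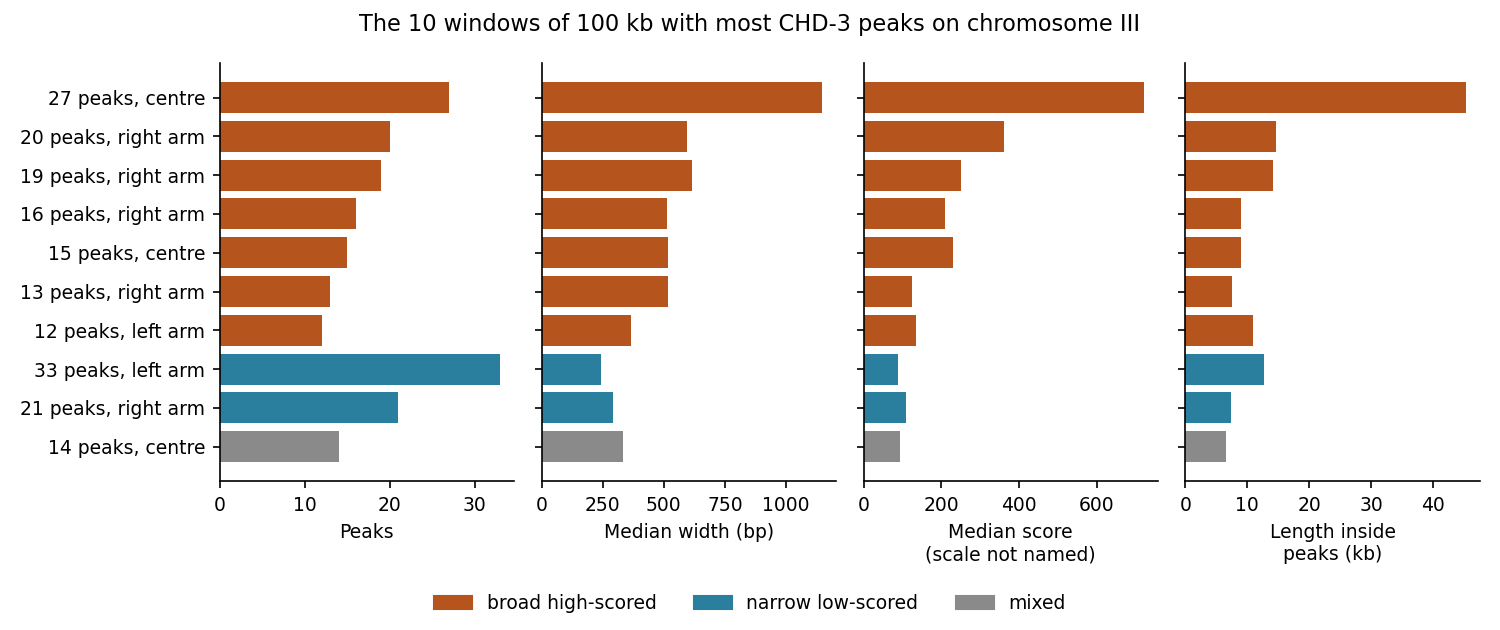
The 10 windows with most peaks, each labelled by its number of peaks and its region, with bars for the number of peaks, the median width in bp, the median score and the kb inside peaks; colours give the class. The window of 33 peaks has the most peaks but covers 12.7 kb, whereas the window of 27 peaks covers 45.3 kb.

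The broad high-scored window from 7400001 to 7500000 and the narrow low-scored window from 300001 to 400000 were the fullest of their classes. The broad high-scored one had 27 peaks with a median of 1147 bp (interquartile range 512.5 to 2017.5 bp), and the narrow low-scored one 33 peaks with a median of 243 bp (215 to 291 bp). The interquartile ranges of width did not overlap. Scores ran from 51.0 to 3100 in the window at 7400001, with 10 of 27 peaks at 1000 or more and 5 under 100. They ran from 51.1 to 2050 in the window at 300001, with 1 of 33 peaks at 1000 or more and 22 under 100. Broad peaks numbered 17 in the window at 7400001 and 3 in that at 300001. This contrast depends on counting close peaks apart: with peaks less than 500 bp apart merged, the window at 7400001 was not among the 10 fullest and that at 300001 was mixed.

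The layout of the peaks differed as well. In the window at 7400001 all but 3 peaks lay in the adjoining runs described above, with a median gap of 53 bp in the longer run and 97.2% of that run inside peaks. Successive midpoints there were a median of 1444.5 bp apart (interquartile range 1144 to 2301 bp). Its remaining 3 peaks, further on, were 164 to 369 bp wide and scored 51.0 to 84.0. In the window at 300001 the closest group, chained at gaps under 1000 bp, ran from 317670 to 332744. It held 22 peaks in 15.1 kb, and peaks took up 50.7% of that length. It began with the highest-scored peak of the window, 317670 to 319675 (2006 bp, score 2050). The next peaks were of another kind: 18 of the 22 were under 300 bp and 17 scored under 100. Their gaps had a median of 348 bp and reached 867 bp, and midpoints were a median of 590 bp apart (323 to 907.5 bp).

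**Figure D5:**
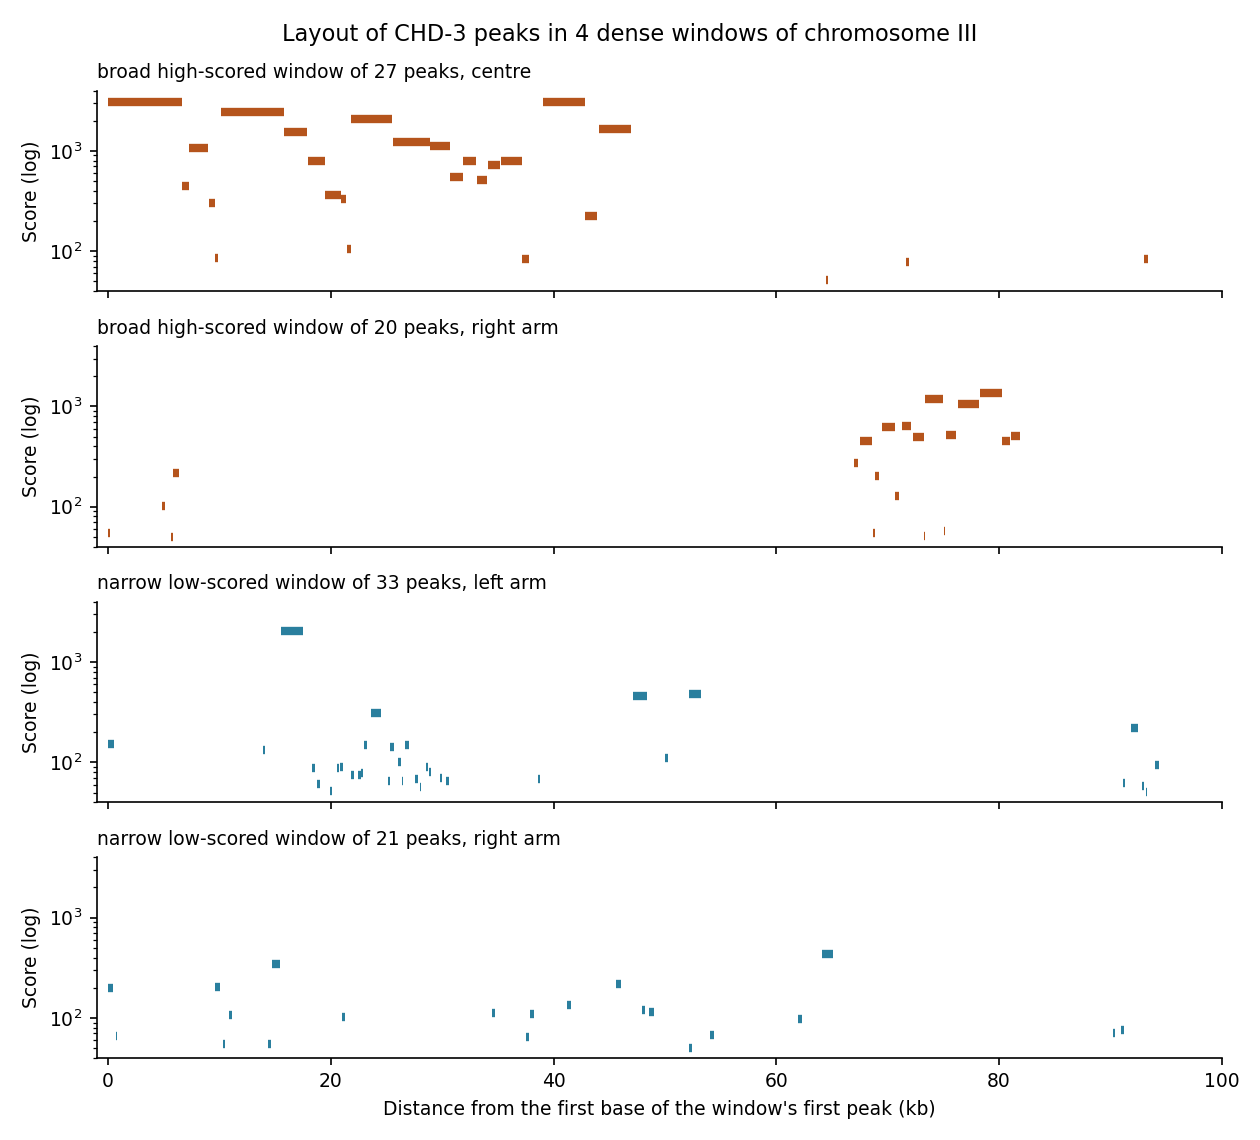
Peaks of 4 dense windows drawn as horizontal bars from first to last base, by distance in kb from the window's first peak, at their deposited score on a log axis. The broad high-scored windows of 27 and 20 peaks have near-continuous blocks of 37.8 and 14.9 kb, the window of 33 peaks has a group of low bars over 15.1 kb after 1 high one, and the window of 21 peaks has its low bars spread out.

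The second narrow low-scored window, from 12500001 to 12600000, was of another layout. Among its 21 peaks the median was 293 bp for width and 108.2 for score. None reached 1000 bp, the widest being 954 bp with a score of 431.5. They were spread through the window, with a median gap of 2320 bp and 6 of 20 gaps under 500 bp, against 17 of 32 in the window at 300001. The 2 windows of many narrow peaks thus held a tight group in 1 case and scattered entries in the other. The class of the window at 12500001 depends on where windows start. With windows shifted by 50 kb, that from 12450001 to 12550000 was narrow low-scored (15 peaks, medians 250 bp and 108.2). The next, from 12550001 to 12650000, was broad high-scored (15 peaks, medians 386 bp and 118.4).

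The broad high-scored windows also varied. Those at 13500001 (20 peaks, median 595.5 bp, score 362.3) and 13000001 (19 peaks, median 617 bp, score 250.6) each had most of their peaks in 1 run. The window at 11600001 (16 peaks, median 514 bp, score 208.5) had no broad peak. It held the end of the run from 11593517 and a run of 8 peaks from 11642045 to 11647497, whose widths ran from 394 to 866 bp. In the window at 3800001 (15 peaks, median 518 bp, score 230.4) the high scores sat in 3 adjacent peaks. The first, 3894783 to 3896053, scored 2248, the second, 3896087 to 3896883, scored 1427, and the third was the tied peak from 3896942. The window at 400001 (12 peaks, median 364.5 bp, score 135.7) lay next to the fullest one and was led by the tied peak from 424568 to 428173 (3606 bp). The last window, from 13700001, is cut short by the chromosome end and held 13 peaks with a median of 517 bp but a score of 123.6, which is little above that of all peaks. Its score and width did not go together (rho -0.19 over 13 peaks), and it contains the last 3 peaks named above. The mixed window at 8700001 had 14 peaks with a median of 333.5 bp and a score of 93.1.

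Summed over classes, the 7 broad high-scored windows, with 122 peaks, had 16.2% of their length inside peaks. The 2 narrow low-scored windows, with 54 peaks, had 10.0%. The window at 7400001 gave 45.3 of the 110.4 kb inside peaks. Without it the other 6 covered 11.2%, and 4 of those 6, with 7.46 to 10.9 kb each, covered less than the narrow low-scored window at 300001 with its 12.7 kb. Broad peaks were 26.2% of the peaks in the broad high-scored windows and 5.56% in the narrow low-scored ones, but the window at 7400001 held 17 of the 32, and without it the share was 15.8%, or 15 of 95. Scores under 100 were 24.6% in the broad high-scored windows (26.3% without that window) and 57.4% in the narrow low-scored ones. Over the 134 windows with a peak, the number of peaks went with the length inside peaks (rho 0.83) but not with the median width (rho -0.02) or the median score (rho 0.0024). The rho of 0.83 is in part built in, because each counted peak adds its own length. These rho describe windows of 1 chromosome that share a library.

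Values of the other 5 chromosomes of the same list are given for comparison. On III the median width of 326 bp and median score of 115.5 lay within the ranges of the others, 314 to 355 bp and 112.5 to 128.3. Gaps under 500 bp were 32.9% of all on III and 24.1 to 29.5% on the others. The 10 fullest windows held 24.6% of the peaks of III and 16.2 to 19.5% of those of the others, although III has the fewest windows, which raises that share. The centre was wider than the arms by 100.5 bp in the median on III and by 6 to 76 bp on the others. The right arm had 1.21 times as many peaks as the left arm on III, within the 0.81 to 1.27 of the others. With 1 list and no replicate none of these differences between chromosomes was tested.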

How the data were processed

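The peak list of the 1 ChIP sample was analysed. Per the file headers and its source column, the authors called peaks with MACS on WormBase WS220. Per the submitters' processing notes, BWA and genome build ce10 were used. For versions, threshold, control and pooling: not given in the sources used here. The values used are the deposited score, of unnamed scale, and the first and last base of a peak. Worms were fixed with 1% formaldehyde for 10 minutes, per the labels' protocols. The depth is unknown, so no counting interval per peak could be given.

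Width was last minus first base plus 1, and a gap the bases between neighbouring peaks. Regions, windows and neighbour pairs go by peak midpoints. The length inside peaks of a window of 100 kb counts the bases within it, also those of peaks whose midpoint lies outside. Intervals of shares are exact binomial ones at 95%, and that of the ratio of the arms follows from such a share. No test was made, since peaks of 1 list are not replicates. The named items are the first and last peak, 5 of the peaks tied at the highest score (the widest of them), the 5 widest, the 10 fullest windows, the 5 longest runs and the 3 longest gaps. The other named items, among them peaks off the relation of score and width, single peaks of runs and the next longest gap, were picked with their values in view. The members and lists were chosen with earlier results of these data known. The functions were tested on simulated data with planted runs and windows. Python 3.11.15, pandas 2.3.3, numpy 2.4.6 and SciPy 1.17.1 were used.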

Additional observations from a re-analysis of the deposited data

How the results depend on the processing

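No paired analysis was possible because only 1 library has a peak list. Of 56 alternatives, 43 stayed close to the value reported, 13 moved further and none changed direction in the value compared. The centre was set against both arms together, so a change of order between the centre and 1 arm is not counted. Counts of windows and runs and shares of close neighbours have no direction that could change. Removing the central window at 7400001 could not alter the ratio of the arms. Close means within the binomial interval for shares and the ratio, within 1.5 times for counts and the length in windows, and within 0.1 for rho. For differences of medians it means within the half-widths of the binomial (order-statistic) intervals of both medians, added in quadrature. Removing the window at 7400001 or that at 300001 was added after seeing the data. The width difference of centre minus arms ranged from 81 to 107.5 bp and that of the score from 22.4 to 38.9. The ratio of right arm to left arm was 1.06 with the chromosome cut into 3 equal parts. It was 1.07 without the 10 fullest windows and 1.10 with peaks less than 500 bp apart merged. Without peaks scored 3100 or more it was 1.25, and without the window at 300001 it was 1.41. With the 50% of peaks highest in score, this ratio was 1.62. The central share minus the centre's 50% of the span was then -0.13 percentage points (-6.02 over all peaks). By these values the left arm was less dense than the centre in that setting, the reverse of their order over all peaks. In that setting close neighbours were 28.2% of pairs and runs of 3 or more numbered 15. With peaks less than 500 bp apart merged, close neighbours were 11.6% (24.5% within 5000 bp), rho was 0.76 and 4 of the 10 fullest windows were broad high-scored. Of the 10 windows reported, 7 were then among the fullest, 5 in the same class. The windows at 7400001, 11600001 and 13500001, all broad high-scored, dropped out. Those at 300001 and 400001 were mixed. With the 50% of peaks highest in score 7 remained, 6 in the same class, with 300001 mixed. Those at 8700001, 12500001 and 13700001 were gone, so the narrow low-scored count of 2 rests there on other windows. Without the window at 7400001, broad peaks in broad high-scored windows were 15.8% (26.2% with it). Without the 10 fullest windows close neighbours were 34.7%. Neighbours within 1000 and 5000 bp were 29.8% and 50.4% by construction, and chaining at 200 bp gave 28 runs. The cause of the other moves was not tested, apart from merging and filtering leaving 519 and 387 entries. Depth could not be examined.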
